A study of Mus musculus with 12 samples.

Results

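Cav2, Cdh1 and Cdh4 are 3 protein-coding genes of the cell membrane and of cell adhesion, found by their symbols among the 27942 genes analysed in C2C12 cells. C2C12 is a mouse myoblast line that stops dividing and fuses into multinucleated myotubes when serum is withdrawn. Cells of both groups reached 80% density in growth medium (10% fetal bovine serum) before a switch to differentiation medium (2% horse serum), and RNA was taken 7 days later. The control group (3 libraries) received no compound, and the OI group (3 libraries) received 25 µmol/L 4-octyl itaconate, a cell-permeable ester of the metabolite itaconate. The series title describes OI as a repressor of myogenic differentiation, and the comparison of the groups asks whether the 3 genes differ with it.

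Caveolin 2, the product of Cav2, is a membrane protein that pairs with caveolin 1 in caveolae, the small flask-shaped pits of the plasma membrane that are abundant in muscle and that buffer membrane tension and organise signalling. Cdh1 encodes E-cadherin, the calcium-dependent adhesion protein of epithelial cells, and Cdh4 encodes R-cadherin (retinal cadherin), known from neural and renal tissue and from developing muscle. Classical cadherins bind the same protein on a neighbouring cell with their outer domains and bind catenins, which link them to actin, with their cytoplasmic tails. Myoblasts are known mainly for other cadherins, N-cadherin and M-cadherin.

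The 3 genes fell into an expressed gene and a pair at or near 0. Cav2 was present in all 6 libraries at 7.75 to 8.64 FPKM (fragments scaled to gene length and to library size, the unit of the tables), with a control mean of 8.34 ± 0.51 FPKM and an OI mean of 8.09 ± 0.17 FPKM (SD, n = 3 each). Cdh1 and Cdh4 were listed at 0 in all 3 OI libraries and in 2 of 3 control libraries, and each had a trace value in control replicate 2. Cav2 did not differ between the groups beyond the spread of the libraries. Cdh1 and Cdh4 were too low for a difference to be measured.

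**Figure D1:**
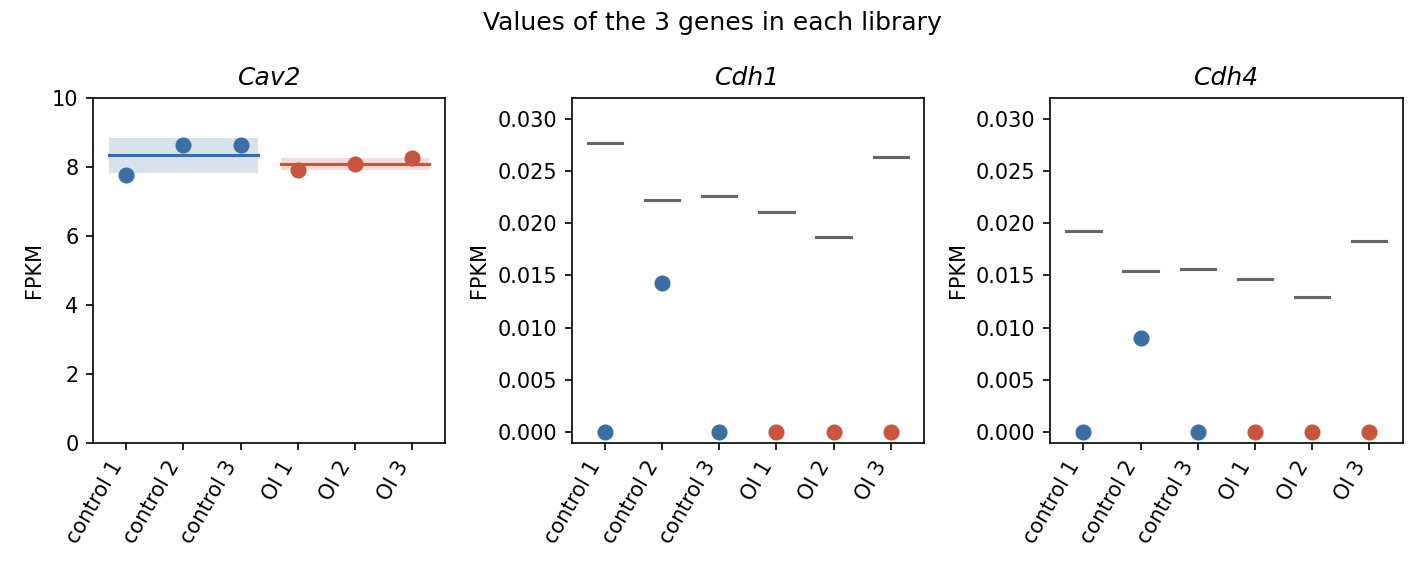
FPKM of Cav2, Cdh1 and Cdh4 in each library (points; control in blue, OI in red), with separate vertical scales; for Cav2 the lines are group means and the bands ± 1 SD (n = 3), and for Cdh1 and Cdh4 the grey bars mark what 3 reads would give in that library. Cav2 lies between 7.75 and 8.64 FPKM with overlapping groups, and every value of Cdh1 and Cdh4 lies under the grey bars.

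The sequence before the start of Cav2, the member that was transcribed, is shown, since Cav2 is the one of the 3 with a level that can be measured. Cav2 (ENSMUSG00000000058) lies on the plus strand of chromosome 6 from 17281185 to 17289115 in GRCm38, the assembly also called mm10. The 250 bases before its RefSeq start (GRCm38.p6, chr6:17280935-17281184, plus strand, upstream of the first exon) lie inside the span of the antisense gene Gm15581 but hold 0 of its exonic bases. They read, with a GC box (GGGCGG) and an AP-1 motif (TGACTCA) in capitals:

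Cav2 upstream: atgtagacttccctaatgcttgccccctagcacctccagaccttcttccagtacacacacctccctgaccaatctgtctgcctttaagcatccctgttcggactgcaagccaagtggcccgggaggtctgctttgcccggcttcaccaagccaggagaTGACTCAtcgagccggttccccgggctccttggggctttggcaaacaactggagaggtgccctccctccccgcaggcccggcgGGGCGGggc

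These bases were 62% G or C and held 10 CpG dinucleotides, against medians of 52.4% and 6 over the 32851 upstream windows of the RefSeq table. The GC box began 9 bases before the start and the AP-1 motif 92 bases before it. Searched on both strands, GGGCGG occurred in 32.7% of all the windows and TGACTCA in 4.46%. The E-box CAGCTG (in 13% of windows), the antioxidant response core TGACNNNGC (in 10.2%) and the TATA box TATAAA (in 12.4%) had no match in this window. A match is a description of letters and not evidence of binding.

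Control replicates 1 to 3 had 7.75, 8.64 and 8.64 FPKM of Cav2. OI replicates 1 to 3 had 7.92, 8.08 and 8.27 FPKM. The lowest of the 6 values was control replicate 1 and the 2 highest were the other controls, so the OI libraries lay between them and the groups overlapped. The OI mean was 0.97 times the control mean. On the log2(FPKM + 1) scale the difference was -0.04 ± 0.07 (SE), with a limma adjusted p of 0.852 over the 1737 genes tested, those at 1 FPKM or more in at least 3 libraries. Its 95% interval ran from 0.859-fold to 1.10-fold, so a larger fall or rise of Cav2 on this scale lay outside it. The exact permutation test of Cav2 alone gave p = 0.4 (two-sided), where the smallest value that 3 against 3 libraries allow is 0.1.

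The Cav2 values rest on many reads. With library sizes of 24441000 to 36274000 reads or fragments, Cav2 corresponded to about 518 to 801 reads per library, numbers that are approximate for a gene of several exons. Counting alone then gives an error of 3.53% to 4.39% per library. The coefficient of variation between libraries was 6.11% in control and 2.16% in OI, of the same order as the counting error. The labels do not say whether the libraries came from separate cultures, so this spread may be technical.

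The library that held the lowest Cav2 value also stood apart in abundant RNA. AY036118, an rRNA-derived locus, was at 70761 FPKM in control replicate 1 and at 691 to 2450 FPKM in the other 5 libraries. Without control replicate 1, Cav2 was still not called, with a log2 difference of -0.08 and a limma adjusted p of 0.673. The interval was then 0.82-fold to 1.09-fold. The part of the rRNA-derived RNA in the low value was not tested.

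Across all tested genes 2.76% (48 of 1737) passed a limma adjusted p of 0.05, 28 of them lower (1.61%) and 20 higher (1.15%) in OI, and 23.6% had groups that did not overlap. Cav2 was in neither set. At an unadjusted p under 0.05 the share was 17.8%, and by limma voom on recovered read numbers 2.02% of 3066 genes passed an adjusted p of 0.05. The absolute log2 difference was smaller than that of Cav2 in 279 tested genes (16.1%), and its median over all tested genes was 0.15. Muscle genes in the same libraries showed that the groups differed elsewhere. For Tnnc1, the slow and cardiac troponin C, the control mean was 126 ± 15.1 FPKM and the OI mean 23.2 ± 1.39 FPKM (SD, n = 3 each; limma adjusted p = 0.000188). Tnnc1 and H19 were the 2 of 24 skeletal muscle markers with values. In bulk RNA, fewer cells of a type and less RNA per cell cannot be told apart, and this holds for the steady level of Cav2 too.

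**Figure D2:**
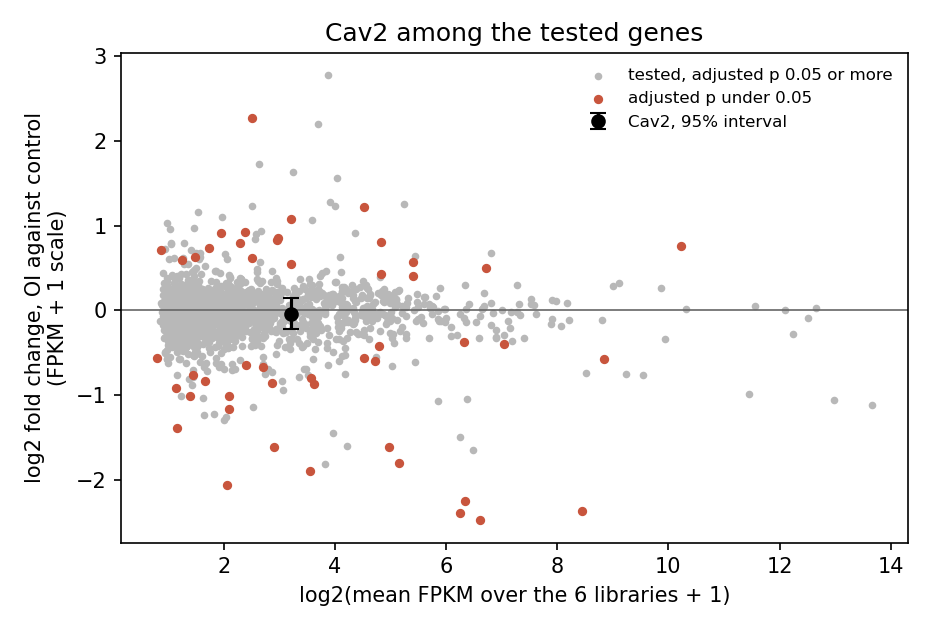
Log2 fold change of OI against control on the FPKM + 1 scale (vertical) against log2 of the mean FPKM + 1 (horizontal) for the 1737 tested genes, with the 48 genes under a limma adjusted p of 0.05 in red and Cav2 in black with its 95% interval. Cav2 lies at -0.04, and its interval includes 0.

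As a level per length, Cav2 stood in the upper part of the protein-coding genes of the tables. Its mean over the 6 libraries was 8.22 ± 0.37 FPKM (SD), rank 109 of the 978 protein-coding genes above 0 in any library. The median of the 310 protein-coding genes tested was 4.45 FPKM, and 104 of the 310 had a higher mean than Cav2. Cdh1 ranked 946 and Cdh4 968 of the 978, with means of 0.00239 and 0.0015 FPKM. Another 1490 of the 2468 protein-coding genes were listed at 0 in every library.

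**Figure D3:**
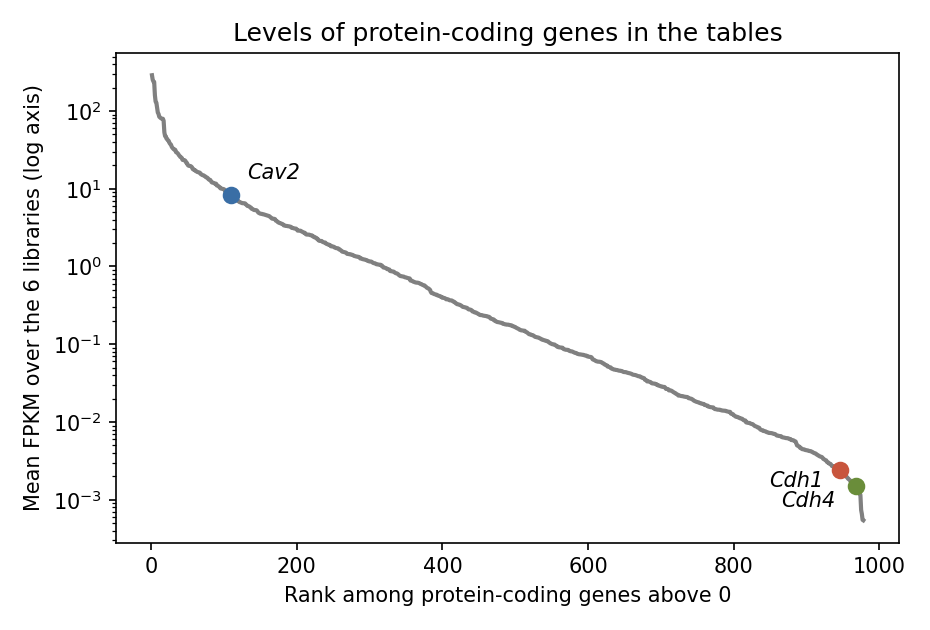
Mean FPKM over the 6 libraries (log axis) of the 978 protein-coding genes above 0 in any library, ordered by rank, with Cav2, Cdh1 and Cdh4 marked. Cav2 stands at rank 109 with 8.22 FPKM, and Cdh1 and Cdh4 stand at ranks 946 and 968, near the lower end.

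Cdh1 (ENSMUSG00000000303, chromosome 8, 106603351 to 106670246, plus strand, GRCm38) was listed at 0 in control replicates 1 and 3 and in all OI libraries, and was at 0.0143 FPKM in control replicate 2. At the length in the tables, 4430 bases, that value equals about 1.94 reads. A count of 0 allows up to 3 reads, which is 0.0187 to 0.0277 FPKM in single libraries and 0.0072 FPKM over the 3 OI libraries together. These limits cover counting error only. E-cadherin RNA was thus under the level that this depth can measure in either group, and no fold change is given.

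Cdh4 (ENSMUSG00000000305, chromosome 2, 179442431 to 179899373, plus strand, GRCm38) had the same pattern, with 0.00903 FPKM in control replicate 2, about 1.76 reads at 6388 bases, and 0 in the other 5 libraries. The limit from 3 reads was 0.0129 to 0.0192 FPKM in single libraries and 0.00499 FPKM over the OI libraries together. For both cadherins the exact permutation test gave p = 1 (two-sided), the one value it can give when a single library is above 0. Against these OI group limits, Cav2 in OI was at least 1124-fold higher than Cdh1 and at least 1620-fold higher than Cdh4 per length.

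The trace values of both cadherins fell in the same library. Of the protein-coding genes 181 were above 0 in 1 library only, and control replicate 2 held 31 of them, Cdh1 and Cdh4 included. The other libraries held between 21 and 38 such genes, so control replicate 2 was not the richest in them. Both values lie under the 3-read limit of that library, 0.0222 FPKM for Cdh1 and 0.0154 FPKM for Cdh4.

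The 2 cadherins are relatives, so their transcripts were compared to see whether reads could be shared. The stretch shown is the most similar window of 60 coding bases without gaps in the top alignment of the 2 transcripts. It lies in exon 16 of both genes, where the cytoplasmic tail that binds beta-catenin is encoded. Sequence outside that alignment was not scanned for windows. Capitals mark the bases that differ between the genes (GENCODE M21, GRCm38, chr8:106668427-106668486 and chr2:179895733-179895792, both on the plus strand):

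Cdh1: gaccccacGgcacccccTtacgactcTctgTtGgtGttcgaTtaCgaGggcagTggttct

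Cdh4: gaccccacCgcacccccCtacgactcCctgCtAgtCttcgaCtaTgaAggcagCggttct

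In this window 50 of 60 bases were identical and 10 differed. The alignment around it had 236 columns at 72.9% identity. The closest relative of Cdh4 among other protein-coding genes was Cdh2, which encodes N-cadherin, at 69.6% identity over 35.2% of the Cdh4 transcript, and that of Cdh1 was Cdh3, which encodes P-cadherin, at 74.8% over 11.8%. At an E-value of 1e-10 or less, Cdh1 matched at least 395 other protein-coding genes, Cdh4 matched 5 and Cav2 matched 0. The number for Cdh1 is a lower bound, since the search kept a limited number of transcripts. Repeated elements were not masked in the search, so a match need not mean a related gene. Some matches of Cdh1 were shorter and more alike than that to Cdh3, such as Pxmp4 at 82.8% over 157 bases and Ccdc167 at 81.1% over 164 bases. Among protein-coding transcripts, none of the 3 had a match of 90% identity over 80% of its length, the bound set here for a near-identical copy. Pseudogenes and non-coding transcripts were not searched. The bound also does not cover shorter stretches, so whether reads could be shared was not settled.

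The loci were checked for overlapping genes, since the sources used here do not give the strand setting of the counting. Gm15581, an antisense gene, spans Cav2 on the opposite strand (chromosome 6, 17206823 to 17385604). It shares 0 exonic bases with Cav2 and was listed at 0 in all 6 libraries. No gene of the tables overlapped Cdh1 or Cdh4. In GENCODE M21, the processed pseudogene Gm14300 overlaps the span of Cdh4 on the opposite strand. It shares 0 exonic bases with Cdh4 and had no values here. Among the genes analysed, the nearest above Cdh4 in coordinate was 4921531C22Rik, a processed transcript 76.6 kb away. It had a control mean of 1.23 ± 0.04 FPKM and an OI mean of 1.25 ± 0.20 FPKM (SD, n = 3 each, limma adjusted p = 0.967). The nearest analysed gene to Cdh1, 1110028F18Rik, lies 8.53 kb below it and was listed at 0 in every library. Around Cav2, the nearest analysed genes were D830026I12Rik, listed at 0 throughout, and Gm29591, above 0 in control replicate 1 only, at 0.115 FPKM. Another 25842 annotated genes had no values here, so genes that lie closer to the 3 loci may be missing from this list of nearest genes. The search for overlapping genes covered all genes of GENCODE M21.

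In the annotation of the tables the 3 genes share 1 cellular component term, plasma membrane. It was carried by 80 tested genes, of which the pseudogene Kansl2-ps rose and the integrin gene Itga10 fell in OI (limma adjusted p = 0.0414 and 0.0268). That is 2 of 80, near the 2.76% of all tested genes. At an unadjusted p under 0.05 it was 19 of 80, beside 17.8% of all tested genes, and by limma voom 5 of 137, beside 2.02%. Their median log2 fold change was -0.04, against -0.02 for all tested genes. Cdh1 and Cdh4 share the term for homophilic cell adhesion, carried by 60 genes. Of these 34 are protocadherins, 39 were above 0 in any library and 9 were tested. Of the 9, 0 passed limma at an adjusted p of 0.05 and 1 (Dchs2) had an unadjusted p under 0.05, beside 17.8% of all tested genes. By limma voom 1 of 22 passed, again Dchs2, beside 2.02% of all genes in that fit. The 9 had a median log2 fold change of -0.04 and a range of -0.70 to 0.09. The lowest was Gm12992, a processed transcript, at -0.70 ± 0.62 (SE). Gm6483, Gm21092 and Gm21811 among the 9 are unprocessed pseudogenes.

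Other adhesion genes under the homophilic adhesion term had levels that could be tested. Pcdhgc3, a clustered protocadherin, had means of 80.5 ± 5.83 FPKM (control) and 81.5 ± 2.06 FPKM (OI; SD, n = 3 each; limma adjusted p = 0.941). Dchs2, a large cadherin of the Dachsous type, had means of 2.16 ± 0.21 FPKM (control) and 1.34 ± 0.09 FPKM (OI; SD, n = 3 each). The log2 fold change was -0.43 ± 0.09 (SE; limma adjusted p = 0.0946). Its groups did not overlap, as in 23.6% of all tested genes. Of the settings run, the voom fit alone called Dchs2 (log2 fold change -0.69, limma voom adjusted p = 0.0221). Its limma adjusted p was 0.146 with quantile normalization, 0.243 with the replicate block, 0.37 with no filter and 0.117 to 0.244 without 1 library, and its log2 fold change was -0.17 at pseudocount 5 and -0.65 at pseudocount 0.1.

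Of the pathways named for the members, cell adhesion molecules (Cdh1 and Cdh4) had 2 tested genes, adherens junction (Cdh1) had 3 and endocytosis (Cav2) had 16. The 3 of adherens junction were the processed pseudogenes Gm12844 and Gm8188, and Gm10031. In these pathways 0 genes passed limma at an adjusted p of 0.05, beside 2.76% of all tested genes. At an unadjusted p under 0.05 the numbers were 0, 0 and 4, beside 17.8% of all tested genes. By limma voom they were 0 of 5, 0 of 4 and 1 of 24, beside 2.02% of all genes in that fit, and the 1 was the pseudogene Gm15459. Focal adhesion (Cav2) had 9 tested genes. Of these, 1 passed limma at an adjusted p of 0.05, lower in OI, beside 2.76% of all tested genes. At an unadjusted p under 0.05 it was 3 of 9, beside 17.8%. By limma voom 1 of 12 passed, the same gene, beside 2.02%. That gene was Itga10, an integrin subunit that binds collagen, with means of 2.41 ± 0.25 FPKM (control) and 1.03 ± 0.20 FPKM (OI; SD, n = 3 each). The log2 fold change was -0.76 ± 0.12 (SE; limma adjusted p = 0.0268). Leaving out any single library ended the call (limma adjusted p from 0.0638 to 0.0997), as it did for Kansl2-ps (0.0885 to 0.14). Its log2 fold change was -0.30 at pseudocount 5, -1.17 at pseudocount 0.1 and -1.25 in the voom fit. Dchs2, Itga10, Kansl2-ps and Gm15459 were chosen after their values were seen.

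The caveola term was carried by 8 genes, and Cav2 was the one tested. The other 7 were processed pseudogenes, with values of 0 to 1.20 FPKM. Of the 21 caveolar genes listed for comparison, such as Cav1 and Cav3, and of the 42 cadherin and junction genes, such as Cdh2, Cdh15 and Ctnnb1, 0 had values in the tables used, and they were not analysed here. The same held for 11 epithelial, 6 endothelial and 12 fibroblast markers, so the near-0 level of Cdh1 could not be set beside that of other epithelial genes.

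The genes whose values over the 6 libraries ran most like those of Cav2, among 432 tested genes with names, were Zfp383 (Pearson r = 0.96 on the log2(FPKM + 1) scale), Mir7091 (0.95) and AC154335.1 (0.90). Zfp383, a zinc finger gene, had 2.61, 3.22 and 3.29 FPKM in the 3 controls, and 2.59, 2.64 and 2.92 FPKM with OI. As in Cav2, control replicates 2 and 3 were the highest. These are descriptions over 6 libraries of the same experiment, ranked as the closest of many genes.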

How the data were processed

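The authors deposited 1 table of FPKM values per library, for 3 control and 3 OI libraries; a second set of 3 control and 3 OI samples was not analysed here. StringTie 1.3.3b, HISAT2 2.1.0 and cutadapt 2.7 are named with build mm10, per the submitters' processing notes. Of 27943 rows, 1 with broken annotation was left out. The rows lacked 25842 GENCODE M21 genes of a middle range of Ensembl identifiers. The 3 genes have the same positions in GENCODE M21. Library sizes were recovered from genes of 1 exon, where FPKM times length fell within 0.01 of whole steps in 100% of values up to 50 steps. Genes at 1 FPKM or more in at least 3 libraries were tested with limma 3.58.1 (R 4.3.3) on log2(FPKM + 1), trend=TRUE, no replicate block, Benjamini-Hochberg adjustment, two-sided. Cdh1 and Cdh4 were under the filter and were given an exact permutation test. Protein-coding transcripts were compared with BLAST 2.17.0. The rule for named genes took the 3 members, and caveolar and cadherin list genes with values (there were 0). It also took the overlapping and nearest genes with values, and the 3 most correlated with Cav2. Muscle markers with values are named as a check of the cell type; AY036118 and genes from shared annotation terms were added after seeing the data. Members and lists were chosen with earlier results of these data known. The labels and the design text name no test. Library replicates carry numbers, and the labels do not say whether these pair the libraries. The deviations of same-numbered libraries had correlations from -0.08 to 0.14. Upstream sequence is from RefSeq (GRCm38.p6), which matched 1 of the 3 genes. Alternatives are given at the end.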

Additional observations from a re-analysis of the deposited data

How the results depend on the processing

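Cav2 kept its direction and stayed without a call under all 15 alternatives, with log2 fold changes from -0.08 to -0.01 and limma adjusted p-values from 0.673 to 0.976; leaving out 1 library each gave -0.08 to -0.02, and the replicate block -0.04 (adjusted p = 0.872). The deviations of same-numbered libraries had correlations of 0.05, 0.14 and -0.08. These values cannot decide whether same-numbered libraries were paired, and the labels do not say. For Cdh1 and Cdh4, the log2 differences were -0.0068 and -0.0043 with no filter (limma adjusted p = 0.865 and 0.909). Without control replicate 2 the differences of both were 0, and without control replicate 1 or 3 the exact permutation p was 0.4. The exact permutation p stayed 1 for both with pseudocounts of 0.1 (differences of -0.0644 and -0.0416) and 5 (-0.00138 and -0.00087), with median-of-ratios scaling and without any 1 OI replicate. With a single library above 0, each of these permutation p-values was fixed by the group sizes and by which group held that library. They therefore show nothing about robustness. The filter at 5 FPKM, quantile normalization and voom left both genes out, and the block and trend settings were not run for them. The number of genes called, 48, was 14 with no filter, 17 with the replicate block and 15 to 24 without 1 library (22, 17 and 21 without control replicates 1 to 3, and 24, 15 and 17 without OI replicates 1 to 3); over the other 7 alternatives it was 43 to 62. The call of Itga10 was also lost with no filter (limma adjusted p = 0.119) and with the replicate block (0.138), and that of Kansl2-ps with these (0.23 and 0.177) and trend=FALSE (0.0691). Depth limits the cadherins, at under 2 reads each, more than Cav2.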
